A study of Homo sapiens with 2 samples.

Results

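The extracellular matrix genes and their integrin receptors were examined in A549 cells, a human lung adenocarcinoma line, by the tags that digital gene expression counted for each gene. Digital gene expression counts short sequence tags from captured mRNA, so that the number of tags of a gene follows the abundance of its transcripts. The genes were taken by symbol alone: collagen chains (COL, number, A, number), laminin chains (LAMA, LAMB or LAMC with a number), integrin alpha chains (ITGA with a number, V or E), integrin beta chains (ITGB with a number) and the matrix proteins FN1, SPARC, HSPG2, AGRN, NID1, NID2 and SULF2. They were 57 of the 13137 genes in the table, namely 22 collagens, 10 laminins, 11 integrin alpha chains, 7 integrin beta chains and 7 other matrix proteins. RefSeq holds 84 human genes whose symbols follow these forms, and the 27 without a row were not analysed here.

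The cells carried a lentiviral H1TetO cassette, in which doxycycline switches on a short hairpin RNA, either against SOX2 (shRNA-SOX2) or of scrambled sequence (shRNA-Con). Both lines were polyclonal populations selected with puromycin, and both were kept in doxycycline for 4 days before 4 µg of total RNA was taken, so the hairpin differed between them and the drug did not. There was 1 library of each line, and no library of cells without a hairpin or without doxycycline was analysed here. The value columns of the table are named SC and S1, which were read as shRNA-Con and shRNA-SOX2.

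The library labelled shRNA-Con held 2304184 tags on genes and the shRNA-SOX2-labelled library held 2093816. SOX2 itself had 16 tags with shRNA-Con and 23 in the shRNA-SOX2-labelled library, a ratio of 1.58 (95% interval 0.80 to 3.20), so the targeted mRNA was not measured lower where the label says it was silenced. The epithelial keratins KRT8, KRT18 and KRT7 had between 1606 and 12729 tags in each library, while EPCAM, also an epithelial marker, had only 8 and 4. Of the 6 epithelial markers 2 were called higher (KRT8 and KRT19) and 2 lower (KRT18 and KRT7), and VIM, a mesenchymal filament that A549 cells also express, had 3872 tags with shRNA-Con and 1780 in the other library. Of 9 fibroblast markers, 4 had a row, and they summed to 53 tags with shRNA-Con and 68 in the shRNA-SOX2-labelled library, of which COL1A1 gave 44 and 43. Of 5 endothelial markers 1 had a row, with 3 and 0 tags, and the leukocyte markers summed to 7 and 12. The part of such cells in the results was not tested.

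Matrix around epithelial cells is laid down as a basement membrane, a thin sheet built on networks of type IV collagen and of laminin trimers and joined by nidogens and the heparan sulphate proteoglycans perlecan and agrin. Fibrillar collagens, type VI collagen and fibronectin make up the looser interstitial matrix beyond it. Cells hold on to both through integrins, dimers of an alpha and a beta chain in the plasma membrane, which link the matrix outside to talin, kindlin, filamin and the actin cytoskeleton inside.

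The type IV collagen genes moved pair by pair, and their promoters are shown because the genes of a pair lie head to head with the promoters between them. In the RefSeq sequences of build GRCh38.p14, the starts of COL4A1 and COL4A2 are 127 bases apart on opposite strands of chromosome 13, and those of COL4A5 and COL4A6 are 380 bases apart on the X chromosome. Each window runs from 250 bases before to 50 bases after the start of transcription, 5′ to 3′ on the strand of its gene. Capitals mark each CCAAT box (CCAAT or its reverse complement ATTGG) and each GC box (GGGCGG or CCGCCC). The COL4A1 window, on the minus strand, also takes in the start of COL4A2.

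COL4A1, chr13:110307108-110307407, minus strand: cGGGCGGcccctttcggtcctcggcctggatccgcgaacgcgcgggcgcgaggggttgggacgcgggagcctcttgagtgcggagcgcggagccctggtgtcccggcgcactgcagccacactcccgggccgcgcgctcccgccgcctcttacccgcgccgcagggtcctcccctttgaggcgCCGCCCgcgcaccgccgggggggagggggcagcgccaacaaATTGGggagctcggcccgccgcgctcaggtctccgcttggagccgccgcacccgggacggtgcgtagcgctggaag

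COL4A5, chrX:108439588-108439887, plus strand: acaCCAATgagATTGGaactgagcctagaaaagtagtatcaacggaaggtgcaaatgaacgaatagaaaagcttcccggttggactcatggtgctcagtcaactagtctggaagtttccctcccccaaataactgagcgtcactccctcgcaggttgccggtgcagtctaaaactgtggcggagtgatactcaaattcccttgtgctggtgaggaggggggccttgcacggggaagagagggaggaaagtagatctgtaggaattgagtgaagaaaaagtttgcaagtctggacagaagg

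COL4A6, chrX:108439409-108439708, minus strand: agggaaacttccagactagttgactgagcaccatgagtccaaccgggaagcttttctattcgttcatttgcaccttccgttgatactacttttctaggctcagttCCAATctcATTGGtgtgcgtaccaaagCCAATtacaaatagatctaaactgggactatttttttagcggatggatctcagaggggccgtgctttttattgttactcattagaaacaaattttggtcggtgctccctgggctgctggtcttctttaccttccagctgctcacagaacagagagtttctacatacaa

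The window of COL4A1 was 76.7% G and C and held 2 GC boxes and 1 CCAAT box. Those of COL4A5 and COL4A6 were 49.3% and 43.7% G and C, held 2 and 3 CCAAT boxes and no GC box, and share the bases between 108439588 and 108439708 of the X chromosome. The windows of COL4A3 and COL4A4, a pair that was not called, were 67.7% and 74% G and C. They held 2 and 0 GC boxes and no CCAAT box. Over all 27305 promoters of this length the median was 58.3% G and C, a CCAAT box was found in 35.7% and a GC box in 44.6%. Among the 45 of 57 genes here with a promoter sequence, 13 held a CCAAT box and 28 a GC box. A CCAAT box was in 4 of the 12 called higher, 2 of the 6 called lower and 7 of the 27 not called. For a GC box these numbers were 8, 5 and 15. A link between promoter sequence and direction was not tested. The letters ACAATG or CATTGT, the core of SOX sites, were in 1 of the 45 and in 11.0% of all promoters, and ACAAAG or CTTTGT, the core shared by SOX and TCF sites, in 3 of the 45 and in 16.0% of all. Motifs were read on both strands and may overlap each other, and a match of letters is not a site of binding.

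Every gene was set against the remaining gene tags in a two-sided test, Fisher's exact test, and was called at an adjusted p of 0.001 or less over the whole table. This test compares these libraries and not the conditions, since there is no second library of either line to show the spread between cultures. Ratios are tags per gene tag in the shRNA-SOX2-labelled library over those in shRNA-Con, and their 95% exact intervals cover counting error only.

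Of the 57 genes, 15 were called higher (26.3%) and 7 were called lower (12.3%) in the shRNA-SOX2-labelled library, against 9.53% and 12.2% of all genes. Genes with many tags are called more easily, so the 25 with 100 tags or more, summed over the libraries, were also set beside genes of that depth. Of these 25, 13 were called higher and 6 lower, against 16.6% and 22.5% of the 6237 genes with at least 100 tags. By size alone, 12 of the 41 genes with at least 20 tags were 2-fold or more higher and 6 were 2-fold or more lower, where 10.4% and 13% of all genes of that depth were. The median log2 fold change of these 41 was 0.31, and that of the 10045 such genes in the table was -0.10.

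**Figure D1:**
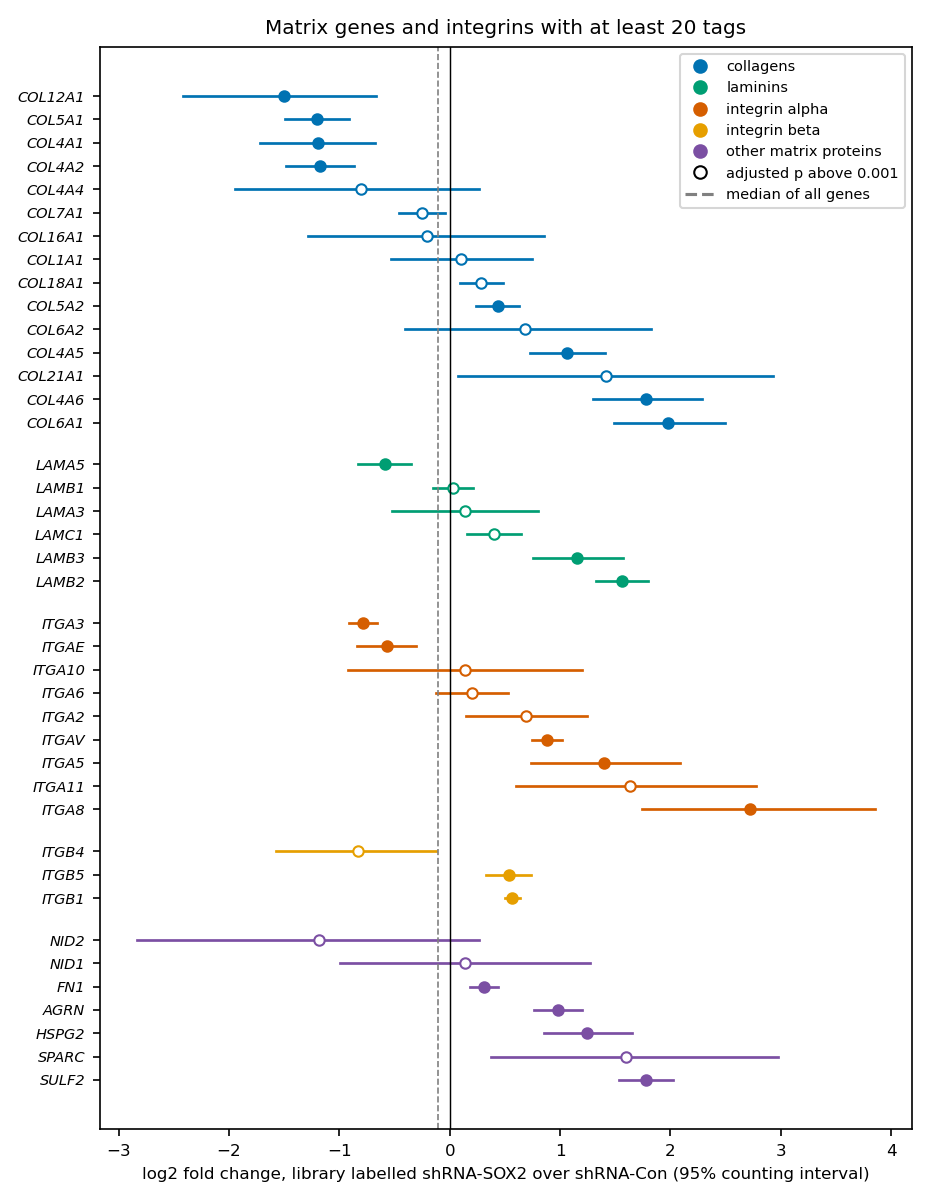
Log2 fold change of 40 of the 41 genes with at least 20 tags, as the shRNA-SOX2-labelled library over shRNA-Con, with 95% exact intervals for counting error, sorted within each family. Filled points had an adjusted p of 0.001 or less in Fisher's exact test, and the dashed line is the median of all genes (-0.10). Every family but the integrin beta chains and the other matrix proteins holds filled points on each side of 0, from -1.51 for COL12A1 to 2.72 for ITGA8.

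Low tag numbers left part of the families outside the reach of the test. No gene of the table with fewer than 12 tags in the libraries together was called, and 11 of the 57 genes fell below that number. Of the 16 genes with fewer than 20 tags, 14 had the larger share of tags in the shRNA-SOX2-labelled library and 2 in shRNA-Con, but none passed the test. Of the 9 genes at 0 in a library, 8 were at 0 in shRNA-Con, and the most tags any of them had in the other library was 6, for ITGA4. Zeros were more frequent in shRNA-Con over the whole table too, where 12353 genes had tags with shRNA-Con and 12513 in the shRNA-SOX2-labelled library. The direction of all genes with fewer than 20 tags was not counted, so these low counts are given as a description.

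**Figure D2:**
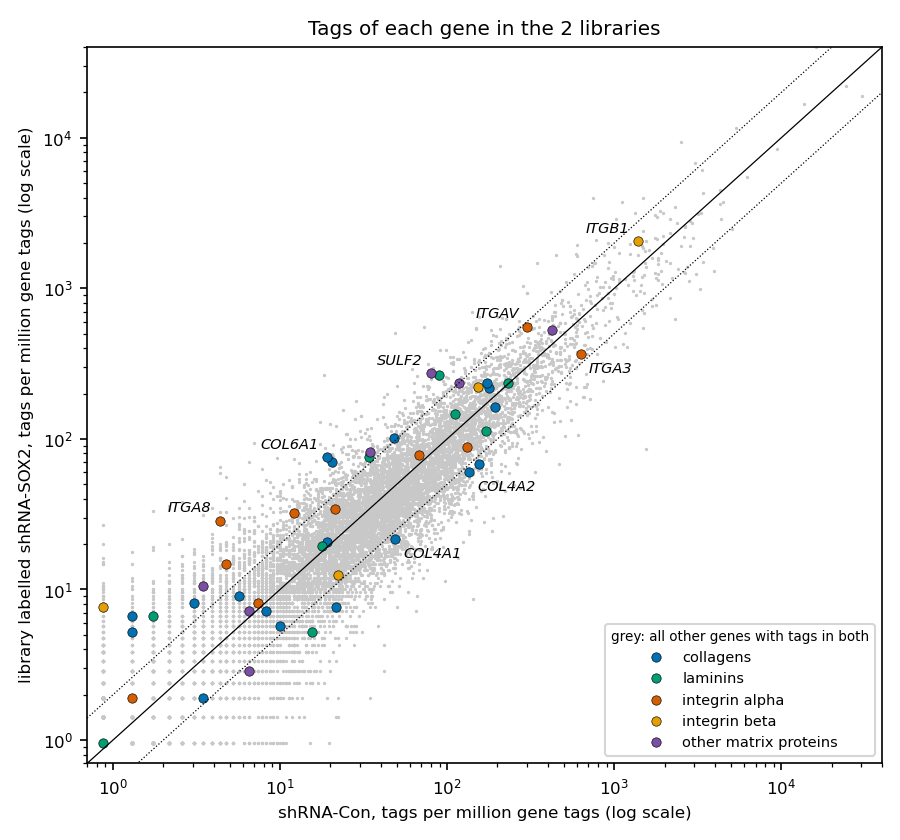
Tags per 1000000 gene tags of each gene with tags in each library, shRNA-Con on the x axis and the shRNA-SOX2-labelled library on the y axis, both on log scales. The solid line marks equal shares and the dotted lines a 2-fold difference. ITGB1 has the most tags of the coloured genes (1381 and 2045), SULF2, COL6A1 and ITGA8 lie above the upper dotted line, and COL4A1 and COL4A2 below the lower one.

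Type IV collagen, the network-forming collagen of basement membranes, moved in opposite directions by gene pair. COL4A1 (Entrez Gene ID 1282) had 113 tags with shRNA-Con and 45 in the shRNA-SOX2-labelled library, a ratio of 0.438 (0.303 to 0.624). COL4A2 (1284) had 313 and 126, a ratio of 0.443 (0.357 to 0.546). These encode the chains found in nearly all basement membranes, and both fell, by factors that lay within counting error of each other. COL4A5 (1287) had 111 and 211 tags, a ratio of 2.09 (1.65 to 2.66), and COL4A6 (1288) had 47 and 147, a ratio of 3.44 (2.46 to 4.89). Both of these, which encode chains of a more restricted set of basement membranes, rose. Their adjusted p-values in Fisher's exact test were 9.21e-06 for COL4A1, 1.31e-14 for COL4A2, 1.53e-09 for COL4A5 and 2.77e-14 for COL4A6. COL4A3 and COL4A4, the remaining head-to-head pair, had 8 and 23 tags with shRNA-Con and 4 and 12 in the other library, and neither was called (adjusted p = 0.540 and 0.235, Fisher's exact test).

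The tags of the COL4A1 and COL4A2 genes stood in the ratio 0.361 with shRNA-Con and 0.357 in the shRNA-SOX2-labelled library, so that the change between the libraries in this ratio was 0.989 (0.645 to 1.5). COL4A5 had 2.36 tags for each tag of COL4A6 with shRNA-Con and 1.44 in the other library, a change of 0.608 (0.397 to 0.923), so COL4A6 rose more than its neighbour. Such a ratio between genes does not depend on how the libraries are scaled. Over the 6 genes the summed tags hardly moved, from 615 to 545 (ratio 0.975, 0.867 to 1.10). Within that sum the share of COL4A5 with COL4A6 was 25.7% (22.3% to 29.3%, exact binomial interval) with shRNA-Con and 65.7% (61.5% to 69.7%) in the shRNA-SOX2-labelled library. This share was computed after the values were seen and is given as a description.

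**Figure D3:**
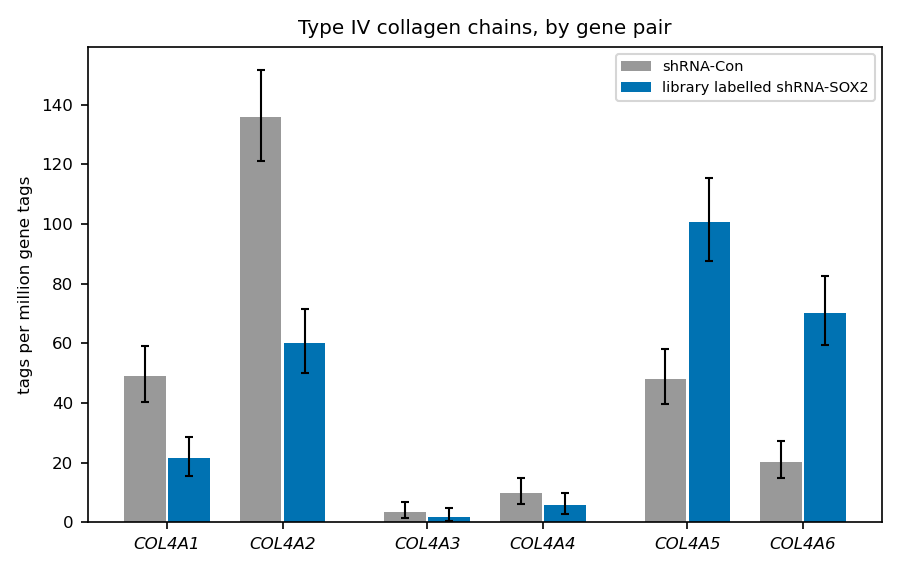
Tags per 1000000 gene tags of the 6 type IV collagen genes in shRNA-Con (grey) and in the shRNA-SOX2-labelled library (blue), grouped by head-to-head pair, with exact Poisson 95% intervals for counting error and 1 library per bar. The bars of COL4A1 and COL4A2 are lower in blue (21.5 against 49.0 and 60.2 against 136), and those of COL4A5 and COL4A6 are higher in blue (101 against 48.2 and 70.2 against 20.4).

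Among the fibrillar collagens the chains of type V, which sets the diameter of collagen fibrils, went apart. COL5A1 (1289) had 359 tags with shRNA-Con and 142 in the shRNA-SOX2-labelled library, a ratio of 0.435 (0.356 to 0.530). COL5A2 (1290) had 401 and 492, a ratio of 1.35 (1.18 to 1.54). The change in COL5A1 relative to COL5A2 was 0.323 (0.253 to 0.410), and the adjusted p-values of the genes in Fisher's exact test were 3.52e-17 and 4.96e-05. COL5A2 did not pass the test when the libraries were scaled by clean tags. COL1A1, a chain of type I collagen, had 44 and 43 tags (ratio 1.08, 0.690 to 1.68), and COL1A2 and COL3A1 were among the genes not analysed here.

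Outside these classes, COL6A1 (1291), a chain of the beaded filaments of type VI collagen, had 44 tags with shRNA-Con and 158 in the shRNA-SOX2-labelled library. Its ratio of 3.95 (2.81 to 5.65) was the largest among the called collagens. Its partner COL6A2 had 13 and 19 tags, a ratio of 1.61 (0.754 to 3.54), and the change in COL6A1 relative to COL6A2 was 2.45 (1.02 to 5.70). COL12A1 (1303), a fibril-associated collagen, had 50 and 16 tags, a ratio of 0.352 (0.187 to 0.629). The adjusted p-values in Fisher's exact test were 1.47e-17 for COL6A1 and 5.50e-04 for COL12A1, and the latter did not pass with TMM factors or the median ratio.

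COL7A1, which forms anchoring fibrils under epithelia, had 447 and 342 tags (ratio 0.842, 0.729 to 0.971). COL18A1, the basement membrane collagen from which endostatin is cut, had 412 and 457 (1.22, 1.07 to 1.40). Neither was called (adjusted p = 0.0459 and 0.0117, Fisher's exact test). Summed over the 22 collagens, 2417 tags in shRNA-Con stood against 2284 in the shRNA-SOX2-labelled library, a ratio of 1.04 (0.982 to 1.10) that was below 1 with clean tags. Of the 22 genes 4 were called higher and 4 lower (18.2% each), and 14 did not pass. Of all genes 9.53% were higher and 12.2% lower, or 16.6% and 22.5% at 100 tags or more, which 9 of the 22 reached. The even sum thus covered changes of single chains in each direction.

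Laminins are trimers of an alpha, a beta and a gamma chain, and the 3 classes moved unequally. LAMB2 (3913), the beta chain of synaptic, vascular and kidney basement membranes, had 207 tags with shRNA-Con and 555 in the shRNA-SOX2-labelled library, a ratio of 2.95 (2.51 to 3.48). LAMB3 (3914), the beta chain of the laminin of epithelial hemidesmosomes, had 78 and 158, a ratio of 2.23 (1.69 to 2.96). LAMB1 (3912), the common beta chain, had 530 and 492, a ratio of 1.02 (0.902 to 1.16). LAMA5 (3911), the alpha chain of most adult epithelial basement membranes, fell from 392 tags to 237, a ratio of 0.665 (0.564 to 0.784). LAMC1 (3915), the common gamma chain, had 255 and 306 tags, a ratio of 1.32 (1.11 to 1.57). In Fisher's exact test the adjusted p-values were 1.63e-43 for LAMB2, 2.97e-08 for LAMB3, 4.18e-06 for LAMA5, 0.847 for LAMB1 and 0.00431 for LAMC1, and LAMC1 passed with TMM factors or the median ratio.

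Several chains of the same trimer changed relative to each other, so that their proportions differed between the libraries. LAMA3 and LAMB3 are chains of the laminin that hemidesmosomes bind. LAMA3 had 41 tags in each library, and its change relative to LAMB3 was 0.495 (0.287 to 0.851). LAMA5 changed by 0.651 (0.529 to 0.802) relative to LAMB1, while LAMC1 changed by 1.29 (1.05 to 1.6) relative to LAMB1 and by 0.448 (0.353 to 0.567) relative to LAMB2. Among beta chain tags the share of LAMB2 was 25.4% (22.4% to 28.5%) with shRNA-Con and 46.1% (43.2% to 48.9%) in the other library, a share also computed after the values were seen. The 10 laminins summed to 1545 and 1818 tags, a ratio of 1.29 (1.21 to 1.39). Of the 10, 2 were called higher (20%), 1 was called lower (10%) and 7 did not pass. Of all genes 9.53% were higher and 12.2% lower, or 16.6% and 22.5% at 100 tags or more, which 5 of the 10 reached.

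ITGB1 (3688), the beta chain that pairs with most matrix-binding alpha chains, had 3182 tags with shRNA-Con and 4281 in the shRNA-SOX2-labelled library, a ratio of 1.48 (1.41 to 1.55). ITGB5 (3693), which pairs with ITGAV in a receptor for vitronectin, had 351 and 462, a ratio of 1.45 (1.26 to 1.67). Both rose, with adjusted p-values of 5.96e-62 and 1.27e-06 in Fisher's exact test. ITGB4, the beta chain of hemidesmosomes, had 51 and 26 tags and was not called (ratio 0.561, 0.336 to 0.917). The remaining beta chains, ITGB2, ITGB3, ITGB7 and ITGB8, had 18 tags or fewer in the libraries together. ITGB8, which was named after its values were seen, had 2 tags with shRNA-Con and 16 in the other library, a ratio of 8.80 with an interval of 2.07 to 78.9. ITGB8 was not called (adjusted p = 0.00202, Fisher's exact test), and its count with shRNA-Con was below the floor of 3 tags used for log2 fold changes.

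Of the 11 alpha chains taken by the rule, 3 were called higher (27.3%), 2 were called lower (18.2%) and 6 did not pass. Of all genes 9.53% were higher and 12.2% lower, or 16.6% and 22.5% at 100 tags or more, which 5 of the 11 reached. The 3 called higher were those of the 11 whose dimers recognise the RGD sequence of fibronectin and vitronectin. ITGAV (3685) had 696 tags with shRNA-Con and 1166 in the shRNA-SOX2-labelled library (ratio 1.84, 1.68 to 2.03), ITGA5 (3678), of the classical fibronectin receptor, had 28 and 67 (2.63, 1.67 to 4.25), and ITGA8 (8516), a receptor chain for nephronectin, had 10 and 60 (6.60, 3.35 to 14.5). Their adjusted p-values in Fisher's exact test were 6.50e-37, 4.59e-05 and 5.99e-10. The laminin receptor chain ITGA3 (3675) fell from 1451 tags to 764, a ratio of 0.579 (0.530 to 0.633), with an adjusted p of 4.73e-34 in Fisher's exact test. ITGA6, the other laminin receptor chain, had 156 and 163 tags, a ratio of 1.15 (0.918 to 1.44).

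The collagen receptor chain ITGA2 had 49 and 72 tags (ratio 1.62, 1.11 to 2.37) and did not pass (adjusted p = 0.0307, Fisher's exact test). The other collagen receptor chains had 7 to 42 tags in the libraries together, and none was called. ITGAE (3682), known from lymphocytes that bind E-cadherin, had 301 and 184 tags, a ratio of 0.673 (0.557 to 0.811) with an adjusted p of 1.06e-04 in Fisher's exact test. It did not pass with TMM factors. Leukocyte markers were nearly absent from these libraries, with PTPRC, which encodes CD45, at 2 tags in each, and ITGAE's partner ITGB7 had 0 tags with shRNA-Con and 3 in the shRNA-SOX2-labelled library.

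Since an integrin works as a dimer, each alpha chain was also read against its partner. ITGA3 had 0.456 tags for each tag of ITGB1 with shRNA-Con and 0.178 in the shRNA-SOX2-labelled library, a change of 0.391 (0.354 to 0.433). ITGAV went the other way, with a change of 1.25 (1.12 to 1.38) relative to ITGB1 and 1.27 (1.07 to 1.51) relative to ITGB5. ITGA5 changed by 1.78 (1.13 to 2.88) and ITGA6 by 0.777 (0.617 to 0.978) relative to ITGB1, and ITGA6 by 2.05 (1.18 to 3.60) relative to ITGB4. For ITGA2 the change relative to ITGB1 was 1.09 (0.747 to 1.61), an interval that holds 1. Of 20 pairs of chains chosen for assembling together, 16 had 20 tags or more of each gene, and the intervals of 2 of these held 1. Each interval stands for its pair alone, without adjustment for their number. How often the interval holds 1 for pairs of other genes of like depth was not counted, so the count describes these pairs only.

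**Figure D4:**
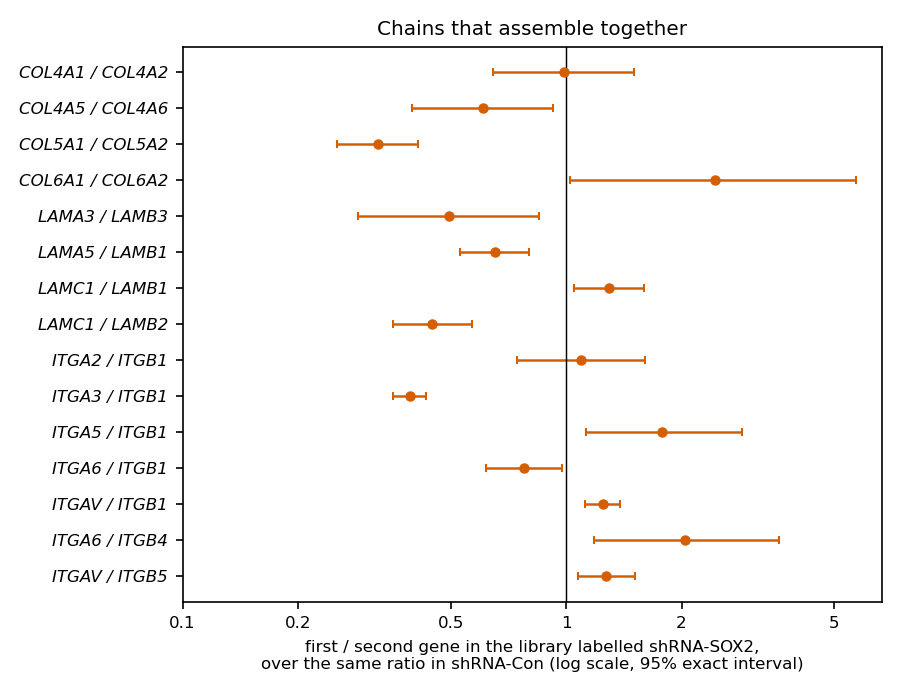
Change between the libraries in the ratio of tags of chains that assemble into the same collagen, laminin or integrin, for 15 of the 16 pairs with at least 20 tags of each gene, on a log scale with exact 95% intervals for counting error. A value of 1 means that the pair kept its proportion. COL4A1 with COL4A2 and ITGA2 with ITGB1 cover 1, COL5A1 with COL5A2 lies farthest to the left at 0.323, and COL6A1 with COL6A2 farthest to the right at 2.45.

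The composition of the alpha chains shifted while their sum did not. The 11 genes had 2722 tags with shRNA-Con and 2534 in the shRNA-SOX2-labelled library, a ratio of 1.02 (0.970 to 1.08) that was below 1 with clean tags. ITGA3 supplied 53.3% (51.4% to 55.2%) of these tags with shRNA-Con and 30.2% (28.4% to 32.0%) in the other library, and ITGAV 25.6% (23.9% to 27.3%) and 46.0% (44.1% to 48.0%). These shares were computed after the values were seen. Without ITGA3, the gene with the most tags, the sum of the alpha chains had a ratio of 1.53 (1.43 to 1.65). For the beta chains the sum had a ratio of 1.47 (1.41 to 1.53), of which ITGB1 gave 89.1% of the tags.

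Of the other matrix proteins, 4 of 7 were called higher (57.1%) and none was called lower, against 9.53% and 12.2% of all genes. The 4 had at least 100 tags each, a depth at which 16.6% of genes were called higher and 22.5% lower. SULF2 (55959), an enzyme that removes sulphate from heparan sulphate chains outside the cell, had 184 tags with shRNA-Con and 572 in the shRNA-SOX2-labelled library, a ratio of 3.42 (2.89 to 4.06). Of the heparan sulphate proteoglycans of the basement membrane, HSPG2 and AGRN rose and COL18A1, given above, was not called. HSPG2 (3339), which encodes perlecan, had 79 and 170 tags (2.37, 1.80 to 3.13), and AGRN (375790), which encodes agrin, had 273 and 490 (1.98, 1.70 to 2.3). FN1 (2335), which encodes fibronectin, had 980 and 1102 tags, a smaller ratio of 1.24 (1.13 to 1.35). The adjusted p-values in Fisher's exact test were 7.99e-54 for SULF2, 6.65e-10 for HSPG2, 7.81e-19 for AGRN and 8.48e-06 for FN1, which did not pass with clean tags.

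SPARC, a collagen-binding protein of the matrix, had 8 and 22 tags, NID1 had 15 in each library and NID2 had 15 and 6. The nidogens bridge laminin and type IV collagen, and none of these 3 genes was called. Over the 7 genes the sum rose from 1554 to 2377 tags, a ratio of 1.68 (1.58 to 1.80), and without FN1, which gave 53.0% of them, it was 2.44 (2.21 to 2.70). The 57 genes together had 11826 tags, 0.513% of all gene tags, with shRNA-Con and 13803, 0.659%, in the shRNA-SOX2-labelled library.

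Genes that act with collagens and integrins were counted in whole lists. The enzymes and chaperones of collagen synthesis and cross-linking had 22 rows for 26 listed genes, of which 5 rose (22.7%) and 3 fell (13.6%), and 14 had at least 100 tags. Beside these stand 9.53% and 12.2% of all genes, or 16.6% and 22.5% at 100 tags or more. PPIB, a proline isomerase of the endoplasmic reticulum, fell from 1549 tags to 874, and P4HB, a subunit of prolyl hydroxylase and a disulphide isomerase, from 1279 to 647. PLOD2, a lysyl hydroxylase, rose from 973 to 1333, and LOXL2, which cross-links collagen, had 1152 and 1068. SERPINH1, the chaperone dedicated to procollagen, had 240 and 727 tags, a ratio of 3.33 (2.88 to 3.87), and was named after its values were seen. The median log2 fold change of the 19 genes with at least 20 tags was 0.00.

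The cytoplasmic proteins that link integrins to actin had 29 rows for 30 listed genes. Of these, 1 rose (3.45%) and 10 fell (34.5%), against 9.53% and 12.2% of all genes, and 16.6% and 22.5% of genes with at least 100 tags, a depth that 22 of the 29 reached. Calls over the whole table thus leaned lower too. The list had a median log2 fold change of -0.42 over 26 genes against -0.10 for all genes. FLNA, a filamin, fell from 2332 tags to 847 (ratio 0.40, 0.369 to 0.433). ACTN4 and ACTN1, the alpha-actinins, fell from 2025 to 1584 and from 1108 to 698, and ACTN4 did not pass with TMM factors or the median ratio. The gene that rose was TLN1, which encodes talin, the protein that binds and activates the tail of integrin beta chains, with 758 and 841 tags (1.22, 1.11 to 1.35). It was named after its values were seen. All of these filamin, actinin and talin calls were made by Fisher's exact test with adjusted p-values between 3.27e-127 for FLNA and 3.48e-04 for TLN1.

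Other matrix glycoproteins and proteoglycans had 24 rows for 32 listed genes, with 7 higher (29.2%), 3 lower (12.5%) and a median log2 fold change of 0.27 over 19 genes. The share lower was close to the 12.2% of all genes, while 9.53% of all genes were higher, or 16.6% at 100 tags or more, which 15 of the 24 reached. TGFBI, an integrin-binding matrix protein, rose from 1798 tags to 4354, a ratio of 2.66 (2.52 to 2.82), and LTBP3, which holds latent TGF-beta in the matrix, from 159 to 399. NTN4, a laminin-related netrin, fell from 412 to 154, and CTGF, a matricellular protein, had 355 and 256 and was not called, but passed with clean tags. Of the other matrix receptors, 2 of 14 rose and 2 fell (14.3% each), shares near those of the whole table. CD151, a tetraspanin that associates with laminin-binding integrins, fell from 1156 to 815, CD44, the hyaluronan receptor, rose from 875 to 1080, GPC1, a glypican, rose from 332 to 405 but did not pass with clean tags, and SDC1, a syndecan, had 212 and 254 and was not called. Of 10 matrix metalloproteinases with a row, MMP24 fell from 147 tags to 79, a call that was lost with TMM factors or the median ratio. MMP7, MMP2 and MMP15 had between 17 and 42 tags in each library and none was called.

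The spread between cultures is unknown here. When edgeR's exact test was given a coefficient of variation of 0.1 between cultures, 12 of the 22 called genes passed, namely ITGA8, COL6A1, COL4A6, SULF2, LAMB2, HSPG2, LAMB3, COL4A5, AGRN, ITGAV, COL5A1 and COL4A2, and with 0.2 none did. In the GENCODE release 29 annotation 10 of the 57 genes overlap another gene that has a row under its GENCODE symbol. All but ITGA1 do so only on the opposite strand, COL4A1 with COL4A2 and LAMA5 with ADRM1 among them. Neighbours for which no row was found under that symbol, such as HASPIN at ITGAE and RTRAF at NID2, are not in this count. Whether the tags were assigned by strand is not given in the sources used here, so tags of such neighbours cannot be told apart where they overlap.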

How the data were processed

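Per the labels and the paper, mRNA was selected from total RNA with oligo(dT) beads and profiled by digital gene expression at the Beijing Genomics Institute. The authors deposited tag counts per Entrez Gene ID without normalization, and TPM values, relative to the clean tags of the whole library, which served here only to derive the clean tags of the whole libraries (3516261 for shRNA-Con and 3456212 for the shRNA-SOX2-labelled library). The submitters' processing notes name build hg19, and the aligner is not given in the sources used here. The deposited log2 ratio, p-values and FDR are the authors' own comparison and were not used. Neither were the gene coordinates, which carry no chromosome and no build and may be of an older build than hg19.

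Counts were divided by the total of gene tags, and a count below 3 was set to 3 for log2 fold changes. Since edgeR's quasi-likelihood test needs replicates, Fisher's exact test, two-sided, was run for each gene, and the 13137 p-values were adjusted after Benjamini and Hochberg. Intervals of ratios came from Clopper-Pearson limits, and those of ratios between genes from the conditional odds ratio. A count of 0 allows up to 3 tags, 1.30 per 1000000 gene tags with shRNA-Con and 1.43 in the shRNA-SOX2-labelled library.

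Named were all genes of the families that were called or had at least 100 tags, those with at least 10 tags and 0 in the other library (none), and the 4 genes of each further list with the most tags. Chains of the planned pairs were named with their pair, and the few other genes after their values were seen. The genes, lists and pairs were chosen with earlier results of these data known. All 57 Entrez IDs were found in RefSeq under the same symbol, and for genes with several promoters the first one listed was used. Alternatives were scaling by clean tags, by TMM factors or by DESeq2's median ratio, a minimum of 10 tags, an FDR of 0.05, a minimum log2 fold change of 1, 0.5 added to each count, and edgeR's exact test with an assumed coefficient of variation of 0.1, 0.2 or 0.4. Some single-gene results are not reported here, though counts include them. The steps were tested on simulated data. Python 3.11.15, scipy 1.17.1, R 4.3.3, edgeR 4.0.16 and DESeq2 1.42.0 were used.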

Additional observations from a re-analysis of the deposited data

How the results depend on the processing

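No paired analysis was possible because each line has 1 library, and for the same reason no library could be left out. The number of the 57 genes called, 22 with 15 higher and 7 lower, was 20 to 22 under the other 3 scalings or a minimum of 10 tags, with 13 to 16 higher and 5 to 7 lower. An FDR of 0.05 gave 34, of which 24 were higher, and requiring a log2 change of 1 or more gave 13, with 9 higher and 4 lower. edgeR's exact test with a coefficient of variation set to 0.1 called 12, of which 2 were lower. Over the whole table it called 1166 genes, 43.9% of them higher, and 113 and 0 genes with 0.2 and 0.4. With 0.2 and with 0.4 no gene of the families was called (0 of 57), and 22 and 5 of the 57 had an unadjusted p under 0.05 in that test. These losses follow from the assumed spread.

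Of the further lists, an assumed coefficient of 0.1 left 3 genes of collagen synthesis, 2 of the integrin-linked proteins and 1 of the other receptors. It left 0 metalloproteinases and 9 glycoproteins and proteoglycans, where the main setting called 10 of the latter. A coefficient of 0.2 left 1 glycoprotein, and 0.4 left 0 genes in every list. The minimum log2 fold change left 3, 4, 1, 0 and 9 in the same order, and an FDR of 0.05 gave 7 receptors and 3 metalloproteinases. With TMM factors or the median ratio the 1 metalloproteinase call was lost (0 left).

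The ratio of summed tags moved outside its counting interval with clean tags to 0.961 for collagens, 1.2 for laminins, 0.947 for integrin alpha chains, 1.36 for integrin beta chains, 1.56 for the other matrix proteins and 1.19 for all 57 genes. With TMM factors it was 1.55 for integrin beta chains and 1.35 for all genes. Without the gene with the most tags it was 0.978, 1.44, 1.53, 1.38, 2.44 and 1.21 in the order given first. Clean tags moved the median log2 fold change of all genes from -0.10 to -0.22, and every single gene by the same amount. No called gene named here changed direction under any scaling. Each scaling shifts every gene alike and by less than the smallest of these changes, so this outcome was fixed in advance.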
